A study of Mus musculus with 10 samples.

Results

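RNA of genes that mark mast cells and basophils was measured in peritoneal lavage cells of mice with sepsis: Cpa3, Cma1, Tpsb2, Mcpt4, Kit, Fcer1a, Ms4a2, Gata2 and Hdc. The genes were chosen by symbol, and all 9 were found once each among the 34745 genes of the deposited table. Peritoneal lavage rinses out the free cells of the abdominal cavity, leukocytes with some detached lining cells. The 10 libraries are 5 labelled AX and 5 labelled NC, all from mice with sepsis from cecal ligation and puncture (CLP). The series compares amlexanox, an inhibitor of the kinases TBK1 and IKKε, with vehicle, and on that basis AX is taken here to mean amlexanox and NC vehicle; neither abbreviation is spelled out in the labels. The labels used here give no strain, age, dose or time of lavage, and do not say whether each library came from its own mouse, so the spread between libraries may be technical in part.

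Mast cells are long-lived tissue sentinels, and the peritoneal cavity of the mouse is a classic source of the connective tissue type. Their granules hold histamine, heparin and proteases, which are released when IgE bound to the high-affinity receptor FcεRI is crosslinked by antigen. They depend for survival on the receptor tyrosine kinase KIT and its ligand, stem cell factor. Basophils are rare blood granulocytes that share FcεRI, GATA2, histamine and Cpa3 with mast cells but also carry other granule proteases.

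None of the 9 genes passed a test of AX against NC over all 10 libraries. Power was low, as 10 of 100 simulated 2-fold changes were recovered. The clearest pattern was instead among the genes themselves. The 4 granule protease genes Cpa3, Cma1, Tpsb2 and Mcpt4 went up and down together from library to library. No pair of a protease with Kit, Gata2 or Hdc passed the test of correlation that the protease pairs passed. The AX libraries held both the highest and the lowest protease values of the series. The beta chain gene of FcεRI, Ms4a2, was close to undetected, and so was Mcpt8, a protease that marks mouse basophils.

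Levels are given as CPM, a gene's count scaled to the total count of its library. Library totals ran from 10221170 in NC 1 to 13806885 in NC 2, so 1 count was worth less than 0.1 CPM and a count of 0 allowed a level of up to 0.217 to 0.294 CPM (3 counts). Across the whole table, edgeR's quasi-likelihood test called 0 of 12264 genes tested at a Benjamini-Hochberg adjusted p under 0.05, a background of 0%. It gave 113 genes, or 0.921%, an unadjusted p under 0.05, and the CPM ranges of AX and NC were fully separate for 12, or 0.0978%. DESeq2 called 1 gene, Rnf24, named here after its values were seen, while limma-voom called 0; 236 and 132 genes had an unadjusted p under 0.05 with these tools.

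The granule proteases come first. The chymase gene Cma1 (ENSMUSG00000022225, chromosome 14 from 55941453 to 55944661 on mm10, minus strand) encodes an alpha-chymase that in the mouse cleaves like an elastase. Cma1 stood at 20.5, 6.49, 11.8, 17.3 and 2.11 CPM in AX 6 to AX 10, against 8.12, 8.62, 3.81, 7.76 and 8.24 CPM in NC 1 to NC 5. In AX, 3 libraries lay above every NC library and 1 lay below them all, so the groups overlapped. The mean was 11.6 ± 7.54 CPM in AX and 7.31 ± 1.98 CPM in NC (SD, n = 5 each).

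Tpsb2 (ENSMUSG00000033825, chromosome 17 from 25366550 to 25368094, plus strand) encodes a tryptase, a trypsin-like protease stored with heparin. Its values were 15.3, 5.14, 11.3, 18.9 and 2.74 CPM in AX 6 to AX 10, against 5.28, 6.16, 4.74, 5.92 and 9.19 CPM in NC 1 to NC 5. The order of the AX libraries resembled that of Cma1, with AX 6 and AX 9 high and AX 10 lowest. The mean was 10.7 ± 6.76 CPM in AX and 6.26 ± 1.73 CPM in NC.

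Mcpt4 (ENSMUSG00000061068, chromosome 14 from 56059744 to 56062310, minus strand) encodes the chymase with the main chymotrypsin-like activity of mouse connective tissue mast cells. It stood at 8.94, 3.37, 3.79, 8.82 and 1.17 CPM in AX 6 to AX 10, against 4.30, 3.04, 2.03, 3.68 and 4.08 CPM in NC 1 to NC 5. AX 6 and AX 9 were again high and AX 10 lowest. Cpa3 (ENSMUSG00000001865, chromosome 3 from 20215620 to 20242181, minus strand) encodes mast cell carboxypeptidase A, an exopeptidase. It stood at 3.40, 1.68, 2.08, 6.52 and 0.548 CPM in AX 6 to AX 10, against 1.96, 1.96, 0.931, 2.72 and 2.95 CPM in NC 1 to NC 5. The lowest of these values, in AX 10, rests on 7 counts, with an exact Poisson 95% interval from 0.220 to 1.13 CPM. The highest, in AX 9, rests on 88 counts, with an interval from 5.23 to 8.04 CPM. These intervals cover counting error only. In these bulk libraries fewer mast cells and less of an RNA per mast cell cannot be told apart.

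**Figure D1:**
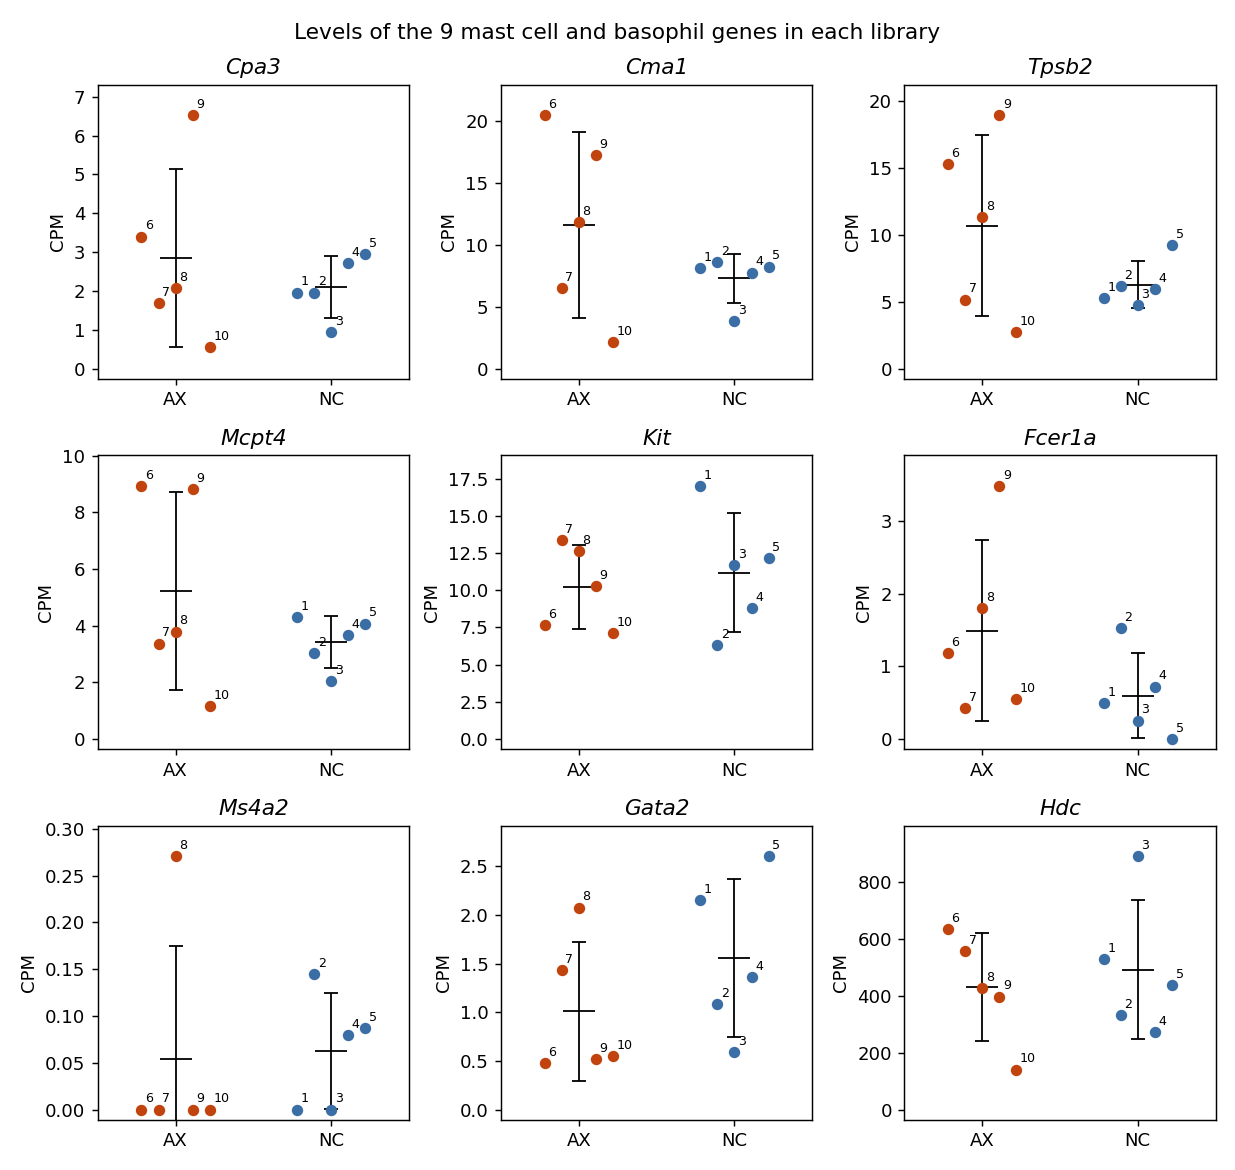
Level of each of the 9 genes in CPM (vertical axes, which differ in range) in the 5 AX libraries (left, orange) and 5 NC libraries (right, blue). Numbers are library numbers, horizontal bars the group mean and vertical bars 1 SD, cut at the axis for Ms4a2. The 4 protease genes spread widely in AX, from AX 10 at the bottom to AX 6 or AX 9 at the top.

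Summed over the 4 genes, protease RNA made up 48.1, 16.7, 29.0, 51.5 and 6.57 CPM in AX 6 to AX 10, against 19.7, 19.8, 11.5, 20.1 and 24.5 CPM in NC 1 to NC 5. The highest AX library thus held 7.84 times the sum of the lowest, against 2.12 times among NC libraries. Whether the groups differ in this spread was not tested.

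The ratios between the proteases varied less from library to library than the genes themselves. The ratio of Cma1 to Mcpt4 counts varied 1.73-fold between the lowest and the highest library, Cma1 to Tpsb2 1.99-fold, Cma1 to Cpa3 2.27-fold and Tpsb2 to Cpa3 2.50-fold. The CPM of the single genes varied 6.90-fold for Tpsb2, 7.61-fold for Mcpt4, 9.69-fold for Cma1 and 11.9-fold for Cpa3. All 6 pairs among the 4 genes correlated across the 10 libraries, on log2(CPM + 0.5). Pearson's r was 0.96 for Cma1 and Mcpt4 (permutation p = 0.00021, adjusted p = 0.00215; Spearman's rho 0.81, adjusted p = 0.0324). It was 0.93 for Cma1 and Tpsb2 (permutation p = 3e-05, adjusted p = 0.00084; rho 0.96, adjusted p = 0.00112). For Cpa3 it was 0.93 with Mcpt4, 0.89 with Cma1 and 0.89 with Tpsb2 (permutation p = 0.00056, 0.00103 and 0.00067; adjusted p = 0.00375, 0.00481 and 0.00375), with rho of 0.89, 0.83 and 0.92 (adjusted p = 0.0102, 0.0318 and 0.00728). For Tpsb2 and Mcpt4 it was 0.91 (permutation p = 0.00023, adjusted p = 0.00215), with rho of 0.81 (adjusted p = 0.0324). The adjustment is over the 28 pairs of the 8 members detected in at least 8 libraries, all 10 libraries being scaled to their own totals. Without the 2 libraries farthest from the median of the first gene of each pair, r of the 6 pairs was 0.71 to 0.89.

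**Figure D2:**
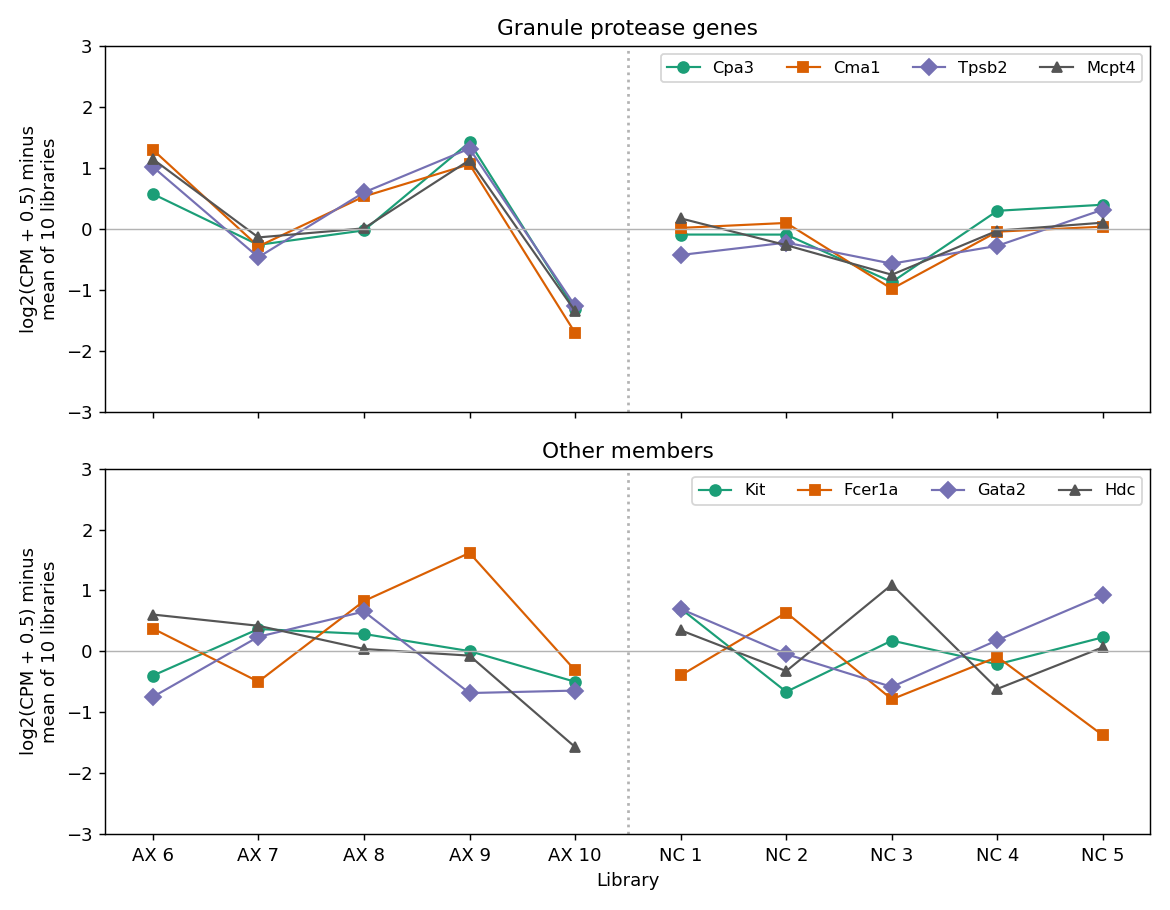
Profile of 8 genes over the 10 libraries, as log2(CPM + 0.5) minus the gene's mean over the libraries (vertical axis); AX libraries are left of the dotted line and NC libraries right of it. Lines join the values of 1 gene and libraries are in number order only. The 4 protease genes (upper panel) share 1 profile, with AX 6 and AX 9 high and AX 10 low. Kit, Fcer1a, Gata2 and Hdc (lower panel) follow it less closely, with a median r with the proteases of 0.06, 0.56, 0.01 and 0.36.

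The same likeness was seen from the whole table. Among the 12263 other genes tested, Mcpt4, Cma1 and Tpsb2 ranked 2, 3 and 4 by Pearson's r with Cpa3 over the 10 libraries. The only gene above them was Cplx2, a complexin that binds the SNARE complex of exocytosis, with r = 0.95 and a level of 0.313 to 2.08 CPM. Among 11508 tested genes, leaving out the members, predicted genes, Rik clones and immunoglobulin or T cell receptor segments, those most like Cpa3 were Cplx2, Faah, AW112010, H2-Aa and Fgl2, with r from 0.84 to 0.95. Kit, Gata2 and Hdc ranked 6737, 6927 and 4506. These ranks are a description over 10 libraries, with no test.

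The DNA just upstream of the RefSeq starts of the members was read as a description. Whether it bears on how their RNA varied was not tested, and no window was found for Tpsb2. The sequences below are the 250 bases before the RefSeq start of transcription on GRCm38 (mm10), written 5′ to 3′ on the gene's strand, for 3 proteases and, for contrast, for Kit and Hdc. They cover chr3:20242182-20242431 for Cpa3, chr14:55944676-55944925 for Cma1, chr14:56062311-56062560 for Mcpt4 (all minus strand), chr5:75574737-75574986 for Kit (plus strand) and chr2:126618679-126618928 for Hdc (minus strand). Capitals mark matches on either strand to GATAA, the core bound by GATA factors, or to TGTGGT, the core bound by RUNX factors. The other motif searched, CATGTG, an E-box bound by MITF, had no match in these 5 windows.
Cpa3: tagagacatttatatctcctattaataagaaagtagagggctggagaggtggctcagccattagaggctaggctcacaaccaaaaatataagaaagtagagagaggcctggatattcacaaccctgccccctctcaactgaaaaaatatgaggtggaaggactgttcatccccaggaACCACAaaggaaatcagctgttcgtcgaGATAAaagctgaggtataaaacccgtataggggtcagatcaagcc
Cma1: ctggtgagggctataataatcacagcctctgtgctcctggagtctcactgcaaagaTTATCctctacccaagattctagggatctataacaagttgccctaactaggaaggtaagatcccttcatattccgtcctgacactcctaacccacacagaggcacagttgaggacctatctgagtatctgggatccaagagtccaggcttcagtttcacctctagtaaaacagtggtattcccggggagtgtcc
Mcpt4: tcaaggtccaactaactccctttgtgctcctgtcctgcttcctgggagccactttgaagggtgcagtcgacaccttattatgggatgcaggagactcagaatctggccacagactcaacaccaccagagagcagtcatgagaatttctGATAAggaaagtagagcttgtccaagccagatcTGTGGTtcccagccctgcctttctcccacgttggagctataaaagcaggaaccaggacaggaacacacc
Kit: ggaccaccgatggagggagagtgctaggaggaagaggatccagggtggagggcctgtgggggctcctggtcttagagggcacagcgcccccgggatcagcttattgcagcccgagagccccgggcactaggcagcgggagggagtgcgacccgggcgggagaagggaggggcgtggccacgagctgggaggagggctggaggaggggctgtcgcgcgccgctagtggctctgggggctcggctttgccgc
Hdc: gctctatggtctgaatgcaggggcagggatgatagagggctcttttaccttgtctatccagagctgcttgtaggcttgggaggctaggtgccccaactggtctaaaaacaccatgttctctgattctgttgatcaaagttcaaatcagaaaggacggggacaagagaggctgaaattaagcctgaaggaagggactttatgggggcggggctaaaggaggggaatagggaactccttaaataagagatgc

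GATAA was present in all 3 protease windows: 45 bases upstream of the start in Cpa3, 102 bases upstream in Mcpt4, and on the opposite strand 194 bases upstream in Cma1. Fcer1a and Ms4a2 also held it, so that 5 of the 8 members with a window did, whereas Kit, Gata2 and Hdc had no match here. Of 32851 windows of the same length in the table, 22.6% hold GATAA. The motif TGTGGT was found in Cpa3, Mcpt4 and Fcer1a, against 14.0% of all windows, and CATGTG in Fcer1a, against 12.3%. No matches overlapped. A match of letters is not a bound site. The RefSeq starts also differ from the gene spans given in this report. The Hdc window lies inside the span of Hdc, and the Kit window runs partly into the span of Kit.

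The receptor genes Kit and Fcer1a followed the proteases less closely than the proteases followed each other. Kit (ENSMUSG00000005672, chromosome 5 from 75574916 to 75656722, plus strand), the receptor for stem cell factor, is also made by haematopoietic progenitors and by pacemaker cells of the gut wall. Kit stood at 7.67, 13.4, 12.6, 10.3 and 7.12 CPM in AX 6 to AX 10, against 17.0, 6.30, 11.7, 8.80 and 12.1 CPM in NC 1 to NC 5. It was low in AX 6, where the proteases were high, and highest in NC 1. Its mean was 10.2 ± 2.83 CPM in AX and 11.2 ± 4.03 CPM in NC, and the ratio of Kit to Cma1 counts ran from 0.375 in AX 6 to 3.37 in AX 10. The median of its r with the 4 proteases was 0.06 (adjusted p = 0.934 for each pair). Within a group, r of Kit with the proteases was 0.13 to 0.22 in AX and -0.18 to 0.30 in NC (n = 5 each, not tested).

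Fcer1a (ENSMUSG00000005339, chromosome 1 from 173221284 to 173227214, minus strand) encodes the IgE-binding alpha chain of FcεRI. It stood at 1.19, 0.421, 1.80, 3.48 and 0.548 CPM in AX 6 to AX 10, against 0.489, 1.52, 0.254, 0.720 and 0 CPM in NC 1 to NC 5. AX 9, highest for Cpa3 and Tpsb2, was also highest for Fcer1a, with 47 of the 132 counts of this gene in all libraries. NC 5 had 0 counts, which allows up to 0.260 CPM. The median r of Fcer1a with the proteases was 0.56, and no pair passed over the 28 pairs (adjusted p from 0.226 to 0.323). Within a group, its r with them was 0.68 to 0.85 in AX and -0.41 to 0.31 in NC (n = 5 each, not tested). Its r with Tpsb2, 0.59 over all libraries, depended on single libraries: it was 0.34 without AX 9 (adjusted p = 0.685, exact permutation) and 0.81 without NC 5 (adjusted p = 0.0331, exact permutation).

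Ms4a2 (ENSMUSG00000024680, chromosome 19 from 11615523 to 11623719, minus strand), which encodes the signal-amplifying beta chain of FcεRI, had 7 counts in all 10 libraries. These were 3 counts in AX 8 and 0 in the other AX libraries, against 2, 1 and 1 counts in NC 2, NC 4 and NC 5 and 0 in NC 1 and NC 3. At this depth no difference could be seen in either direction. The gamma chain gene Fcer1g, which other Fc receptors of myeloid cells share, stood at 1246 ± 294 CPM in AX, against 1404 ± 233 CPM in NC.

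Gata2 (ENSMUSG00000015053, chromosome 6 from 88193891 to 88207032, plus strand) encodes a transcription factor needed for mast cell and basophil development and found also in blood progenitors and endothelium. It stood at 0.475, 1.43, 2.08, 0.519 and 0.548 CPM in AX 6 to AX 10, against 2.15, 1.09, 0.592, 1.36 and 2.60 CPM in NC 1 to NC 5. In AX, 3 libraries were below every NC library: AX 6 and AX 9, the highest for the proteases, and AX 10, the lowest. They rest on 6, 7 and 7 counts, against 7 counts in NC 3, so their place below NC 3 is within counting error. The median r of Gata2 with the proteases was 0.01. Within a group, its r with them was -0.23 to -0.03 in AX and 0.70 to 0.94 in NC (n = 5 each, not tested). Its r with Kit was 0.60 (permutation p = 0.0723, adjusted p = 0.226; rho 0.68, adjusted p = 0.141), and 0.63 without NC 2 and NC 1.

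Hdc (ENSMUSG00000027360, chromosome 2 from 126593667 to 126619299, minus strand) encodes histidine decarboxylase, which makes histamine and which neutrophils and other myeloid cells of the mouse also express. It stood at 634, 558, 428, 397 and 140.2 CPM in AX 6 to AX 10, against 530.2, 333, 891, 272 and 437 CPM in NC 1 to NC 5. NC 3, the NC library lowest in all 4 protease genes, was the highest of the series for Hdc, and AX 10 was lowest for both. The ratio of Hdc to Cma1 counts varied 10.2-fold between libraries, from its lowest value in AX 9 to its highest in NC 3. The median r of Hdc with the proteases was 0.36, with adjusted p from 0.512 to 0.839, and it was -0.20 without AX 10. Within a group, r of Hdc with the proteases was 0.65 to 0.81 in AX and -0.81 to -0.42 in NC (n = 5 each, not tested). Its r with Kit was 0.53 (permutation p = 0.116, adjusted p = 0.298; rho 0.50, adjusted p = 0.407), and 0.56 without NC 2 and NC 1.

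Among the same 11508 genes, those most like Hdc in profile were Lmnb1, Eepd1, Smox, Tnfrsf26 and Thbs1, with r from 0.93 to 0.97 over the 10 libraries. Lmnb1, a nuclear lamina protein, stood at 194 ± 99.0 CPM in AX, against 253 ± 147 CPM in NC. Thbs1, which encodes the matrix protein thrombospondin, stood at 16906 ± 6171 CPM in AX, against 19639 ± 11278 CPM in NC.

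**Figure D3:**
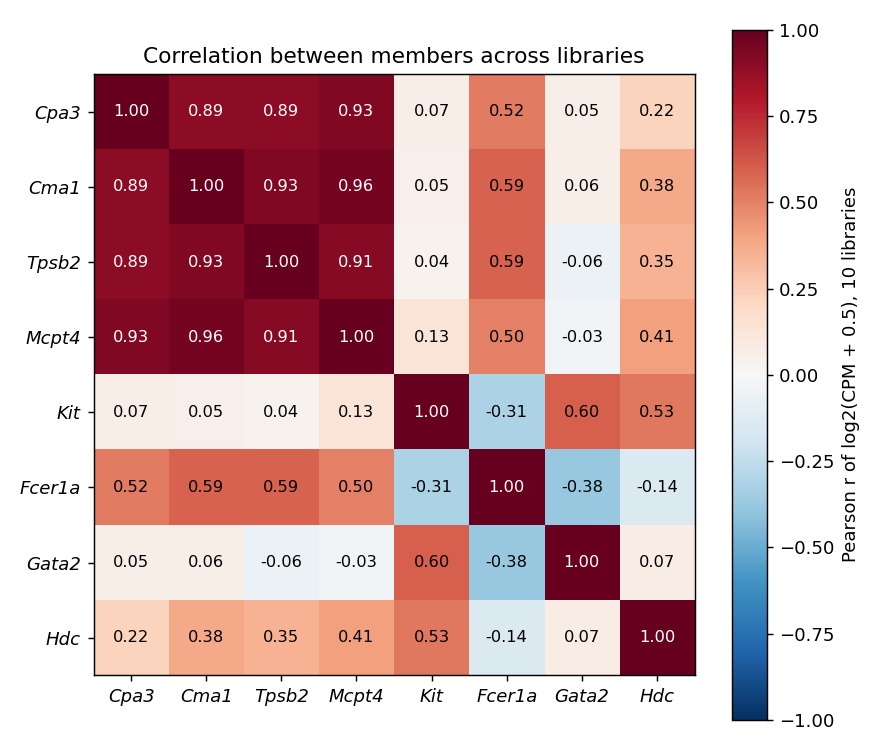
Pearson's r of log2(CPM + 0.5) over the 10 libraries for each pair of the 8 members detected in at least 8 libraries; red is positive and blue negative. With AX and NC pooled, the 4 protease genes form a block with r of 0.89 to 0.96, and Kit and Gata2 lie near 0 with all 4.

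Per length, the order of the members was led by Hdc. Here levels are given as FPKM, which divides by the gene length that the authors used, whereas the ratios of counts above are not per length and serve only to compare libraries. Over the 10 libraries Hdc averaged 61.6 ± 27.7 FPKM, followed by Cma1 at 8.82 ± 5.28, Tpsb2 at 7.83 ± 4.81, Mcpt4 at 4.37 ± 2.61 and Cpa3 at 1.63 ± 1.10 FPKM. Kit followed at 0.826 ± 0.256, Fcer1a at 0.674 ± 0.665, Gata2 at 0.151 ± 0.0915 and Ms4a2 at 0.0130 ± 0.0203 FPKM. Cma1 exceeded Tpsb2 in 6 of 10 libraries, Cpa3 exceeded Kit in 7 and Kit exceeded Fcer1a in 6, so these neighbours were not separated by their spread. Fcer1a exceeded Gata2 in 9 libraries, and the other neighbours kept their order in all 10. The lengths behind the FPKM were 12958 bases for Kit, 8506 for Gata2 and 7503 for Hdc, against transcripts of 5241, 3571 and 2392 bases. For Cpa3 they were close, at 1517 and 1449 bases. The order of Cpa3 and Kit thus depends on the length used.

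The comparison of AX with NC asked whether amlexanox changed the RNA of these genes in septic lavage. Of the 9, 7 passed edgeR's filter on low counts, all but Fcer1a and Ms4a2, and 0 of 7 passed the threshold (adjusted p = 1.0 for each with edgeR), at a background of 0% of all genes. The log2 fold change was 0.81 ± 0.47 (SE) for Tpsb2, 0.75 ± 0.50 for Cma1, 0.66 ± 0.48 for Mcpt4 and 0.45 ± 0.54 for Cpa3. As folds, the 95% intervals ran from 0.862 to 3.58 for Tpsb2, from 0.785 to 3.62 for Cma1, from 0.761 to 3.29 for Mcpt4 and from 0.599 to 3.12 for Cpa3. Kit had a log2 fold change of -0.07 ± 0.31, Hdc of -0.15 ± 0.44 and Gata2 of -0.53 ± 0.56 (SE), with intervals of the fold from 0.598 to 1.52, from 0.461 to 1.75 and from 0.297 to 1.62.

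With no filter on low counts all 9 were tested over 19709 genes, and again 0 passed. Fcer1a then had a log2 fold change of 1.39 ± 0.81 (SE), the highest fitted value of the 9, with a 95% interval of the fold from 0.782 to 8.84 and an adjusted p of 1.0 with edgeR. Its mean was 1.49 ± 1.24 CPM in AX and 0.597 ± 0.582 CPM in NC. Exact two-sided permutation tests of the mean CPM, 1 for each of the 9 genes, gave p from 0.190 for Fcer1a to 1.0 for Ms4a2, where 5 against 5 libraries cannot go below 0.00794. Those of the proteases were 0.230 for Tpsb2, 0.254 for Cma1, 0.357 for Mcpt4 and 0.587 for Cpa3. The CPM of the groups overlapped for all 9.

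A single library could move these values. The AX minus NC difference in Cma1, 4.33 CPM over all libraries, was 2.11 CPM without AX 6 (exact permutation p = 0.516), 2.92 CPM without AX 9 (exact permutation p = 0.508) and 6.71 CPM without AX 10 (exact permutation p = 0.0476). In Tpsb2 it was 2.35 CPM without AX 9 and 6.39 CPM without AX 10, against 4.41 CPM over all libraries. In Mcpt4 it was 0.861 CPM without AX 6, 0.891 CPM without AX 9 and 2.80 CPM without AX 10, against 1.79 CPM over all libraries. In each of these cases edgeR called 0 of the members. The difference in Cpa3, 0.744 CPM over all libraries, was -0.175 CPM without AX 9 and 1.32 CPM without AX 10. The log2 fold change of Hdc was 0.25 without NC 3 and 0.07 without AX 10, and that of Kit was 0.07 without NC 1 and 0.03 without AX 10.

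**Figure D4:**
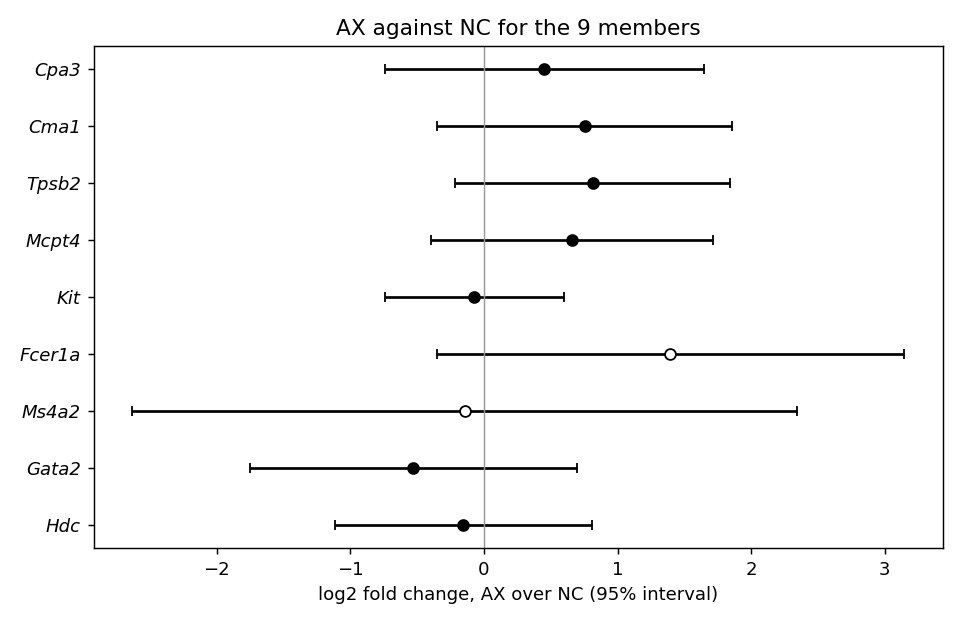
Log2 fold change of AX over NC (horizontal axis) with its 95% interval for the 9 genes from edgeR; filled points passed the filter on low counts and open points come from the fit with no filter. All 9 intervals include 0.

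The spread between libraries exceeded counting error for every member with more than 100 counts. The variance within groups was 13.6 to 34.0 times the Poisson value for the 4 proteases, 13.5 times for Kit, 10.1 times for Fcer1a, 5.64 times for Gata2 and 1271 times for Hdc, against 2.07 times for Ms4a2. The fitted biological coefficient of variation was 0.530 to 0.590 for the proteases and 0.378 for Kit, and its median over all genes tested was 0.378. On simulated counts for this comparison, edgeR recovered 67 of 100 genes with a 4-fold change. It recovered 10 of 100 genes with a 2-fold change, which is larger than the folds fitted for the proteases (1.37 to 1.76). There were 4 false calls. The changed genes were drawn at random from all genes tested. The fitted variation of the proteases was above that of most of these, at percentiles from 77.2 to 82.9. Recovery for genes as variable as the proteases was not measured.

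Markers of mast cell and basophil subtypes were read beside the label. Of the connective tissue mast cell markers, Cpa3, Cma1, Tpsb2, Mcpt4, Kit and Gata2 were detected in all 10 libraries. Fcer1a and Mrgprb1 were detected in 9, Ms4a2 in 4 and Mrgprb2 in 3. Cpa3, Fcer1a, Ms4a2 and Gata2 are basophil markers too, and Kit and Gata2 have other sources. Detection of members that were chosen as mast cell genes does not test the label. The mucosal mast cell protease genes Mcpt1 and Mcpt2 had 6 counts and 1 count in all libraries together. The related tryptase gene Tpsab1 had 92 counts in all, its level running from 0.0783 to 2.30 CPM in AX and from 0.0800 to 1.08 CPM in NC. Mrgprb1, a receptor gene of the mast cell Mrgpr cluster, stood at 0.0783 to 2.89 CPM in AX, against 0 to 1.52 CPM in NC. Mrgprb2, which encodes the mast cell receptor for basic secretagogues, had 4 counts in all.

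Among basophil genes, Mcpt8 had 11 counts, all in AX 6, AX 8, NC 1 and NC 5, and Prss34, another basophil protease gene, had 24 counts in 6 libraries. Cd200r3, a receptor gene of both cell types, stood at 0.743 ± 0.712 CPM in AX, against 0.509 ± 0.171 CPM in NC. Apart from Cd200r3, these genes of other subtypes were picked from longer lists after their values were seen.

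Genes around the members in the same pathways did not pass either. Of 16 genes of FcεRI signalling, all tested, the fitted value was higher in AX for 4 and lower for 12 (median log2 fold change -0.12). The kinase gene Lyn, which starts the signal, stood at 657 ± 245 CPM in AX, against 752 ± 158 CPM in NC, the kinase gene Syk at 506 ± 162 CPM in AX, against 559.6 ± 103 CPM in NC, and the adaptor gene Lcp2 at 459.6 ± 149 CPM in AX, against 533 ± 125 CPM in NC. Of 10 genes of KIT signalling, 6 were higher and 4 lower (median 0.06), with the ubiquitin ligase gene Cbl at 265 ± 89.2 CPM in AX, against 270 ± 39.0 CPM in NC. For comparison, 6574 of all 12264 genes were higher and 5690 lower, with a median of 0.02.

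Histamine handling was represented by 3 tested genes of 7, 1 higher and 2 lower (median -0.26). Hrh2, the H2 receptor gene, stood at 4.13 ± 2.04 CPM in AX, against 5.88 ± 1.99 CPM in NC, and Hnmt, which encodes the enzyme that inactivates histamine, at 2.67 ± 1.63 CPM in AX, against 2.31 ± 0.992 CPM in NC. Slc18a2, the vesicular transporter gene that loads histamine into granules, was low, at 0.326 ± 0.264 CPM in AX, against 0.466 ± 0.0841 CPM in NC. Among 10 cytokine genes of mast cell growth and alarm, 4 were tested, 2 higher and 2 lower (median -0.04), and Il3 and Il9 had 0 counts in all libraries. Il33, the alarmin for the receptor ST2, stood at 34.4 ± 33.6 CPM in AX, against 26.8 ± 23.0 CPM in NC, and Il1rl1, which encodes ST2, at 14.1 ± 8.04 CPM in AX, against 16.0 ± 7.20 CPM in NC.

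Of 24 other mast cell genes, 11 were tested, with 7 higher and 4 lower (median 0.12). Srgn, the core protein gene of the granule proteoglycan serglycin and common to many leukocytes, stood at 2584 ± 910 CPM in AX, against 2128 ± 391 CPM in NC. Of 10 other basophil genes 2 were tested, Il3ra and Csf1, 1 higher and 1 lower (median 0.05). No gene of these lists passed the threshold.

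Other cells in the lavage differed between libraries too. AX 9, highest for summed proteases, was also highest of the 10 for summed large peritoneal macrophage markers, at 397 CPM, where the AX libraries ran from 127 to 397 CPM and the NC libraries from 84.9 to 246 CPM. AX 10, lowest for proteases, held 196 CPM of these markers, and NC 4 and NC 2 held 246 and 233 CPM with protease sums of 20.1 and 19.8 CPM. AX 6, the next highest for proteases, led in summed mesothelial markers, at 2358 CPM (AX from 114 to 2358, NC from 132 to 1229 CPM). It also led in summed stromal and endothelial markers, at 2534 CPM (AX from 411 to 2534, NC from 283 to 1334 CPM). Most of that sum was 1 gene, Dcn, which reached 2284 CPM in AX. Col1a2 was highest in an AX library too, but Col3a1 and Pecam1 were highest in an NC library. NC 1 was second to AX 6 in the mesothelial and in the stromal and endothelial sum, at 1229 and 1334 CPM, with a protease sum of 19.7 CPM. NC 3 was the lowest of all 10 for macrophage and for B cell markers, at 84.9 and 68.2 CPM (B cell markers in AX from 96.8 to 255, in NC from 68.2 to 255 CPM).

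Summed neutrophil markers ran from 5416 to 10551 CPM in AX and from 6536 to 12032 CPM in NC, and T and NK cell markers from 11.0 to 23.4 CPM in AX and from 9.20 to 31.5 CPM in NC. Eosinophil markers summed to 2.35 to 5.46 CPM in AX and 2.35 to 5.87 CPM in NC, with the defining gene Epx at 0 counts. Of the tested members, 8 of 9 macrophage, 9 of 9 mesothelial and 6 of 9 stromal and endothelial markers were higher in AX (medians 0.86, 1.03 and 0.44). Without AX 6 this was 1 of 9 mesothelial, 4 of 9 stromal and endothelial and 8 of 9 macrophage markers (medians -0.23, -0.09 and 0.35). Without AX 6 and NC 1 together, it was 8 of 9 mesothelial and 7 of 9 stromal and endothelial markers (medians 0.28 and 0.34). The direction of these 2 lists thus depended on which of the libraries with high sums were kept. Without AX 9 the median of the macrophage markers was 0.23, and their summed level averaged 177 ± 44.3 CPM in AX (n = 4) and 178 ± 72.1 CPM in NC (n = 5). With all libraries, the fitted value was also higher in AX for 3 of 10 neutrophil, 2 of 7 B cell, 2 of 7 T and NK cell and 0 of 1 eosinophil markers (medians -0.08, -0.21, -0.20 and -0.20). None passed over all genes. On leaving out 1 library in turn, the median of each list given here, pathway lists included, changed sign at least once, except that of the macrophage markers. With the macrophage markers as covariate the log2 fold change was 0.63 for Tpsb2, 0.53 for Cma1, 0.33 for Mcpt4 and -0.08 for Cpa3, and it was 0.05 for Kit, 0.22 for Hdc and -0.37 for Gata2, with 0 members called. The part of the other cell types was not tested.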

How the data were processed

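Polyadenylated RNA from 10 samples of peritoneal lavage cells was made into libraries with a VAHTS Universal V6 kit, per the labels' protocols. Reads were aligned with HISAT2 2.0.4 (mouse build mm10), as named in the submitters' processing notes. How reads were assigned to genes, with which annotation and whether by strand, is not given in the sources used here. Raw counts per gene deposited by the authors were used for all tests. FPKM as deposited by the authors equals count over gene length and column total (largest relative gap 4.72e-05 over 9412 genes); it served to compare genes per length and in 1 alternative.

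AX was compared with NC in R 4.3.3 with edgeR 4.0.16 (filterByExpr by group, TMM scaling, two-sided quasi-likelihood F test, Benjamini-Hochberg over all genes tested, threshold 0.05). CPM were compared by exact permutation, and correlations by 100000 permutations of log2(CPM + 0.5) in Python 3.11.15. The test was tried on simulated data. Alternatives were DESeq2 1.42.0, limma 3.58.1 (voom, and log2(FPKM + 1) for genes at 1 FPKM or more in 5 libraries), other scalings and filters (none, or 50 counts in 5 libraries), a macrophage covariate, other pseudocounts and leaving out libraries. Correlations within a group, of 5 libraries each, are given as values only, without a test.

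Of each gene's 50-base transcript windows in GENCODE M21, 5.38% of those of Cma1 also occur in Gm48934, 5.48% of those of Mcpt4 in Cma2 or Mcpt9 and 2.69% of those of Ms4a2 in Ms4a4b; the other 6 members share none. Cpa3 overlaps Mir7007. The 4 genes with the highest mean CPM of each other list, and the 5 most like Cpa3 and Hdc, could be named by rule. Members and lists were chosen with earlier results of these data known. RefSeq windows were found for 8 of 9 members.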

Additional observations from a re-analysis of the deposited data

Results flagged for a closer look

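Within the NC group Cma1 was far lower in NC 3, at 3.81 CPM, than in the other 4 NC libraries, at 7.76 to 8.62 CPM, a gap that exceeds Dixon's 95% limit for 5 values. Within the AX group Ms4a2 was detected in AX 8 only, at 0.271 CPM or 3 counts. Of 18 groups of 5 tested in this way (9 genes in AX and in NC), chance flags about 1 in 20 where values are normally distributed. That rate does not hold for Ms4a2 in AX, as a gene detected in only 1 library of a group is always flagged.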

How the results depend on the processing

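No paired analysis was possible because the AX and NC libraries carry different numbers. No member was called in any of the 19 alternatives in which it was tested: all 19 for Cma1, Tpsb2 and Hdc, 18 for Cpa3, Mcpt4 and Kit, 17 for Gata2, 8 for Fcer1a and 2 for Ms4a2. Over all genes DESeq2 called 1 gene and leaving out 1 library gave 0 to 1, the gene being Rnf24 both times (without NC 3). The count of members past the permutation test was 0 to 1 on leaving out 1 library. All 6 protease pairs passed under each of 13 alternatives, with r from 0.82 to 0.98. Over all 28 pairs, 6 or 7 passed.

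Small differences changed sign. With the macrophage covariate the log2 fold change was -0.0777 for Cpa3, 0.0531 for Kit and 0.22 for Hdc. Without AX 6 and NC 1 together it was 0.14 for Kit, whose CPM difference was 1.13; this alternative, and leaving out libraries for the other gene lists, were chosen after seeing the data. On leaving out 1 library, the log2 fold change ran from -0.24 to 0.0668 for Kit and from -0.37 to 0.25 for Hdc. The CPM difference ran from -0.175 to 1.32 for Cpa3, from -2.19 to 0.494 for Kit, from -0.0623 to 0.0125 for Ms4a2 and from -116.2 to 38.5 for Hdc; it was 0.00268 for Ms4a2 in TMM-scaled CPM. The median r with the proteases ran from -0.25 to 0.24 for Kit, from 0.30 to 0.74 for Fcer1a, from -0.30 to 0.23 for Gata2 and from -0.20 to 0.67 for Hdc, and was -0.0118 for Gata2 with a pseudocount of 1. The causes were not tested. Depth limits Fcer1a and Ms4a2.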
